A study of Ambystoma mexicanum with 3 samples.

Results

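The genes described here encode the dynein arms, radial spokes and transport trains of motile cilia, followed in nuclei of the tail tip of axolotl embryos. Members were all features whose symbol begins with DNAH, DNAI, DNAAF or RSPH, or with IFT and a number. Of 34 matching symbols, 32 had at least 20 unique molecular identifiers (UMIs, the counted RNA molecules) in the 3 libraries together. DNAH8 and IFT43 had 0 UMIs. The 32 members comprised 20 motile cilium genes (10 DNAH, 2 DNAI, 3 DNAAF and 5 RSPH) and 12 IFT genes, out of 11772 symbols that reached the same 20 UMIs.

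A motile cilium beats because dynein motors, fixed as outer and inner arms along its microtubule doublets, slide neighbouring doublets past each other. DNAH proteins are the motor heavy chains, DNAI proteins are the intermediate chains that hold an outer arm together, and DNAAF proteins assemble the arms in the cytoplasm before they are carried into the cilium. RSPH proteins form the radial spokes that link the doublets to the central pair. IFT proteins make up the 2 complexes, B and A, of the intraflagellar transport trains that build both motile cilia and the non-motile primary cilium found on most vertebrate cells. In amphibian embryos motile cilia are carried by multiciliated epidermal cells and by cells that line the central canal of the spinal cord.

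Stage 42 embryos lost the distal 2 mm of the tail. Nuclei were profiled from the tissue at amputation (0 HPA, hours post amputation) and from 6 HPA embryos kept in artificial rearing water alone (Cont 6 HPA) or in water with 10 µM romidepsin, an inhibitor of histone deacetylases (Rom 6 HPA). For the 6 HPA libraries, 1 mm of distal tail tip was pooled from 100 embryos per condition. The sample titles give the later time as day 6, whereas the design text gives hours, and hours are used here. Whether the control water held the solvent of romidepsin was not stated. The numbers of nuclei that the study's text gives for the 2 libraries of 6 HPA are the reverse of those in the matrices under these labels. Groups follow the labels. If the labels were exchanged, each Rom to Cont ratio would be inverted, and the Cont and Rom ratios to 0 HPA would change places.

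Each condition was 1 library, so no ratio between conditions has a replicate check, and 95% intervals (exact Poisson, binomial or conditional binomial) cover counting error only. The libraries held 31522, 56936 and 44735 nuclei in the order 0 HPA, then Cont 6 HPA, then Rom 6 HPA, with medians of 1019, 1623 and 1079 UMIs per nucleus. Nuclei with at least 1.5 times their library's median, called deeper here, held 39.3%, 21.1% and 28.7% of the UMIs in that order, and 1705 barcodes occurred in more than 1 library. Series of 3 values keep that order throughout. Levels are given as CPM, UMIs scaled to the same total in every library or nucleus class, and were not divided by gene length, so they are compared between samples and not between genes.

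The members' symbols were carried by 142 features, 137 of them with a UMI. DNAH5 alone had 27 features, and the feature with most UMIs held 58.6% of its total. The files do not say whether such features are pieces of 1 gene or related copies, so a heavy chain's sum is uncertain to that extent.

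Summed over each library, neither group of genes moved by much. The 20 motile members together had 109.6 CPM (106.5 to 112.8) at 0 HPA, 112.4 CPM (110.4 to 114.4) in Cont 6 HPA, then 110.6 CPM (108.0 to 113.4) in Rom 6 HPA. These 3 intervals overlapped, and the ratios were 1.03 (0.991 to 1.06) for Cont 6 HPA to 0 HPA and 0.984 (0.955 to 1.01) for Rom 6 HPA to Cont 6 HPA. The 12 IFT members had 67.02 CPM (64.6 to 69.5), 60.6 CPM (59.2 to 62.1) and 66.2 CPM (64.2 to 68.3) in the same order, so that Cont 6 HPA lay below the other libraries. Their ratios were 0.905 (0.865 to 0.946) and 1.09 (1.05 to 1.14). In deeper nuclei these IFT ratios were 0.98 (0.91 to 1.05) and 1.03 (0.96 to 1.11), both with intervals across 1. In the other nuclei, called shallower here, they were 0.96 (0.91 to 1.02) and 1.07 (1.02 to 1.13). FOXJ1, the transcription factor that drives motile cilium genes, had 3.50 CPM (2.96 to 4.11), 3.31 CPM (2.97 to 3.67) and 4.96 CPM (4.41 to 5.57), with the interval of Rom 6 HPA above the other 2.

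**Figure D1:**
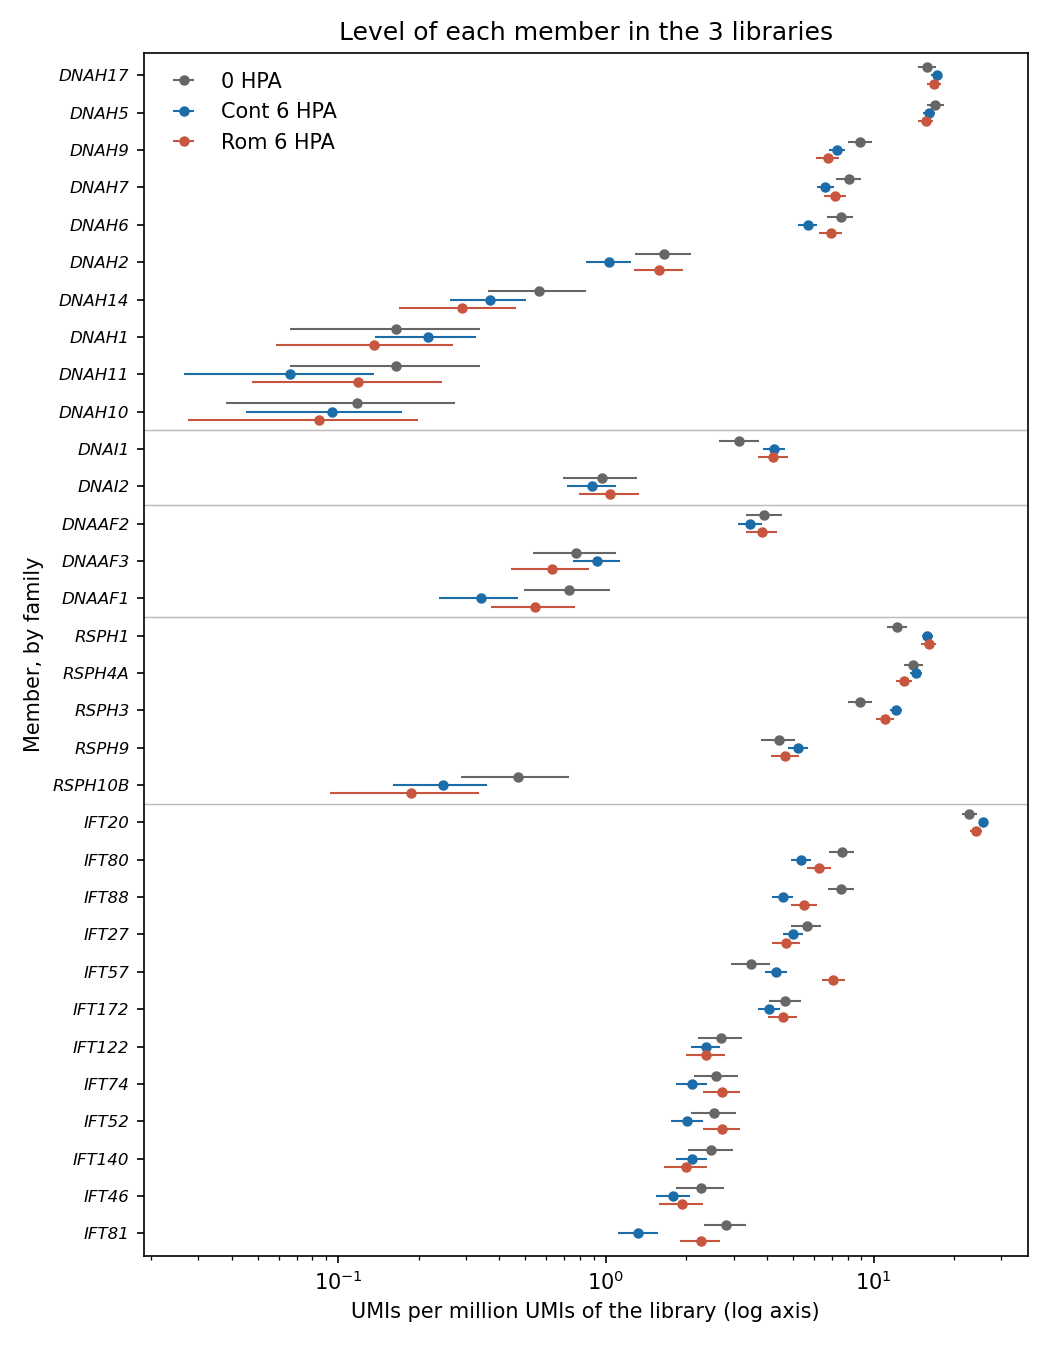
Level of each of the 32 members in the 3 libraries, in CPM on a log axis, with exact Poisson 95% intervals as bars and members grouped by family. For most members the 3 points lie close together, whereas IFT57 is displaced to the right in Rom 6 HPA (7.07 CPM, against 3.48 and 4.33) and IFT81 to the left in Cont 6 HPA (1.32 CPM, against 2.80 and 2.26).

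Among the outer arm heavy chains, DNAH5, whose loss causes primary ciliary dyskinesia in humans, had 17.0, 16.1 and 15.7 CPM. DNAH17, an outer arm chain known from human sperm tails, had 15.8, 17.2 and 16.8 CPM. For both genes the intervals of the ratios Cont 6 HPA to 0 HPA and Rom 6 HPA to Cont 6 HPA, taken over all nuclei, included 1. DNAH9, the partner of DNAH5 in the distal part of the cilium, had 8.89, 7.31 and 6.73 CPM. Its ratio was 0.82 (0.73 to 0.93) for Cont 6 HPA to 0 HPA and 0.92 (0.81 to 1.04) for Rom 6 HPA to Cont 6 HPA. As shown further on, the first difference was seen in neither the shallower nor the deeper nuclei. The Rom 6 HPA to Cont 6 HPA ratio was near 1 in shallower nuclei and lower in deeper nuclei. For the sum of the outer arm chains this ratio was 0.96 (0.90 to 1.02) in shallower and 0.87 (0.80 to 0.95) in deeper nuclei. In deeper nuclei DNAH5 had 29.0 CPM in Cont 6 HPA and 25.2 CPM in Rom 6 HPA, whereas DNAH17 had 12.6 and 14.1 CPM.

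The inner arm heavy chains, taken as a sum over all nuclei, were lower in Cont 6 HPA than in both other libraries. Within the shallower and within the deeper nuclei, the intervals of this difference included 1. Their 5 measured members summed to 17.5 CPM at 0 HPA, 13.6 CPM in Cont 6 HPA, then 15.9 CPM in Rom 6 HPA. The ratios were 0.778 (0.712 to 0.851) for Cont 6 HPA to 0 HPA and 1.17 (1.07 to 1.27) for Rom 6 HPA to Cont 6 HPA. DNAH7 had 8.06, 6.60 and 7.17 CPM, and DNAH6 had 7.52, 5.68 and 6.90 CPM. DNAH2 had 1.65, 1.03 and 1.58 CPM, a ratio of 0.63 (0.46 to 0.86) followed by one of 1.53 (1.15 to 2.04). All 3 genes were lowest in Cont 6 HPA, as was the sum. The remaining DNAH members, DNAH1, DNAH10, DNAH11 and DNAH14, stayed between 0.07 and 0.56 CPM in the 3 libraries.

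The intermediate chain DNAI1 had 3.15 CPM at 0 HPA, 4.25 CPM in Cont 6 HPA, then 4.22 CPM in Rom 6 HPA, which made a ratio of 1.35 (1.11 to 1.65) for Cont 6 HPA to 0 HPA, whereas DNAI2 had 0.96, 0.89 and 1.04 CPM with both intervals across 1. Of the assembly factors, DNAAF2 had 3.90, 3.45 and 3.82 CPM, DNAAF3 had 0.78, 0.93 and 0.63 CPM, and DNAAF1 had 0.73, 0.34 and 0.54 CPM. DNAAF3 had the lowest Rom 6 HPA to Cont 6 HPA ratio among members with at least 100 UMIs in those libraries, 0.68 (0.45 to 1.00). DNAAF1 had 0.47 (0.28 to 0.78) for Cont 6 HPA to 0 HPA on 31 and 36 UMIs.

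The radial spoke genes, taken as a sum over all nuclei, were higher in both 6 HPA libraries than at 0 HPA. So was the sum of the intermediate chains (ratios of 1.25 and 1.28), but its intervals included 1 within the shallower and within the deeper nuclei. The radial spoke ratio of Cont 6 HPA to 0 HPA was 1.11 (1.04 to 1.18) in shallower and 1.14 (1.02 to 1.28) in deeper nuclei. For Rom 6 HPA to 0 HPA it was 1.08 (1.01 to 1.16) in shallower and 1.04 (0.92 to 1.18) in deeper nuclei. Together the radial spoke genes had 40.2 CPM (38.3 to 42.1), 47.9 CPM (46.5 to 49.2) and 44.9 CPM (43.2 to 46.7), ratios of 1.19 (1.13 to 1.26) and then 0.939 (0.895 to 0.984). RSPH1, a spoke head protein, had 12.3, 15.9 and 16.0 CPM, and RSPH3, a stalk protein, had 8.91, 12.1 and 11.1 CPM. Their Cont 6 HPA to 0 HPA ratios, 1.29 (1.17 to 1.43) and 1.36 (1.21 to 1.53), were with DNAI1 the 3 highest among members with at least 100 UMIs. The head proteins RSPH4A, with 14.1, 14.4 and 13.0 CPM, and RSPH9, with 4.42, 5.22 and 4.66 CPM, moved less. RSPH10B went the other way, with 0.47, 0.25 and 0.19 CPM on 20, 26 and 11 UMIs.

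The 10 measured proteins of the B complex, which carries cargo toward the ciliary tip, included the members with at least 100 UMIs that had the highest (IFT57) and lowest (IFT81) ratios to 0 HPA in a 6 HPA library. IFT57 had 3.48 CPM at 0 HPA, 4.33 CPM in Cont 6 HPA, then 7.07 CPM in Rom 6 HPA. It was thus highest under romidepsin, at 1.63 times Cont 6 HPA (1.43 to 1.87) and 2.03 times 0 HPA (1.68 to 2.47). IFT81, which with IFT74 binds tubulin, had 2.80, 1.32 and 2.26 CPM, a ratio of 0.47 (0.37 to 0.61) followed by 1.71 (1.34 to 2.18).

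Further proteins of the B complex also had their lowest value in Cont 6 HPA. IFT88 had 7.55, 4.59 and 5.51 CPM, ratios of 0.61 (0.53 to 0.70) and 1.20 (1.04 to 1.39). IFT80 had 7.59, 5.35 and 6.27 CPM, ratios of 0.70 (0.61 to 0.81) and 1.17 (1.03 to 1.34). IFT52 had 2.54, 2.01 and 2.72 CPM and IFT74 had 2.59, 2.09 and 2.70 CPM, with Rom 6 HPA to Cont 6 HPA ratios of 1.35 (1.09 to 1.67) and 1.29 (1.05 to 1.59). Their Cont 6 HPA to 0 HPA ratios, 0.79 (0.63 to 1.01) and 0.81 (0.64 to 1.03), had intervals across 1. Each of these 4 genes was lowest in Cont 6 HPA. IFT20, which also works at the Golgi, went the other way, with 22.8, 25.6 and 24.1 CPM and a ratio of 1.12 (1.04 to 1.21) for Cont 6 HPA to 0 HPA. IFT27, a small GTPase of the complex, had 5.62, 5.01 and 4.71 CPM. The A complex, which returns cargo to the cell body, was represented by IFT122 and IFT140, whose sum gave 0.867 for Cont 6 HPA to 0 HPA and 0.975 for Rom 6 HPA to Cont 6 HPA.

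The members past 1.5-fold between libraries were counted and set beside the shares of all symbols. Whether the members differed from those shares was not tested. From 0 HPA to Cont 6 HPA, 0 of the 32 members were higher by over 1.5-fold and 7 were lower (DNAAF1, DNAH2, DNAH11, DNAH14, IFT81, IFT88 and RSPH10B), beside 3.83% and 21.9% of all symbols. The members' median log2 ratio was -0.22 and that of all symbols -0.23. From Cont 6 HPA to Rom 6 HPA, 5 members were higher by over 1.5-fold (DNAAF1, DNAH2, DNAH11, IFT57 and IFT81) and 1, DNAH1, was lower, beside 9.45% and 3.7% of all symbols, with medians of 0.01 and 0.03. From 0 HPA to Rom 6 HPA, IFT57 was higher and DNAH14 and RSPH10B were lower, beside 5.82% and 13.6%. With size factors (median of ratios) as the scale, the whole set of genes shifted, so that every log2 ratio to 0 HPA moved upward by 0.21 for Cont 6 HPA and by 0.18 for Rom 6 HPA. The direction of the summed IFT members from 0 HPA to Cont 6 HPA turned with it, from -0.14 to 0.07 on the log2 scale.

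**Figure D2:**
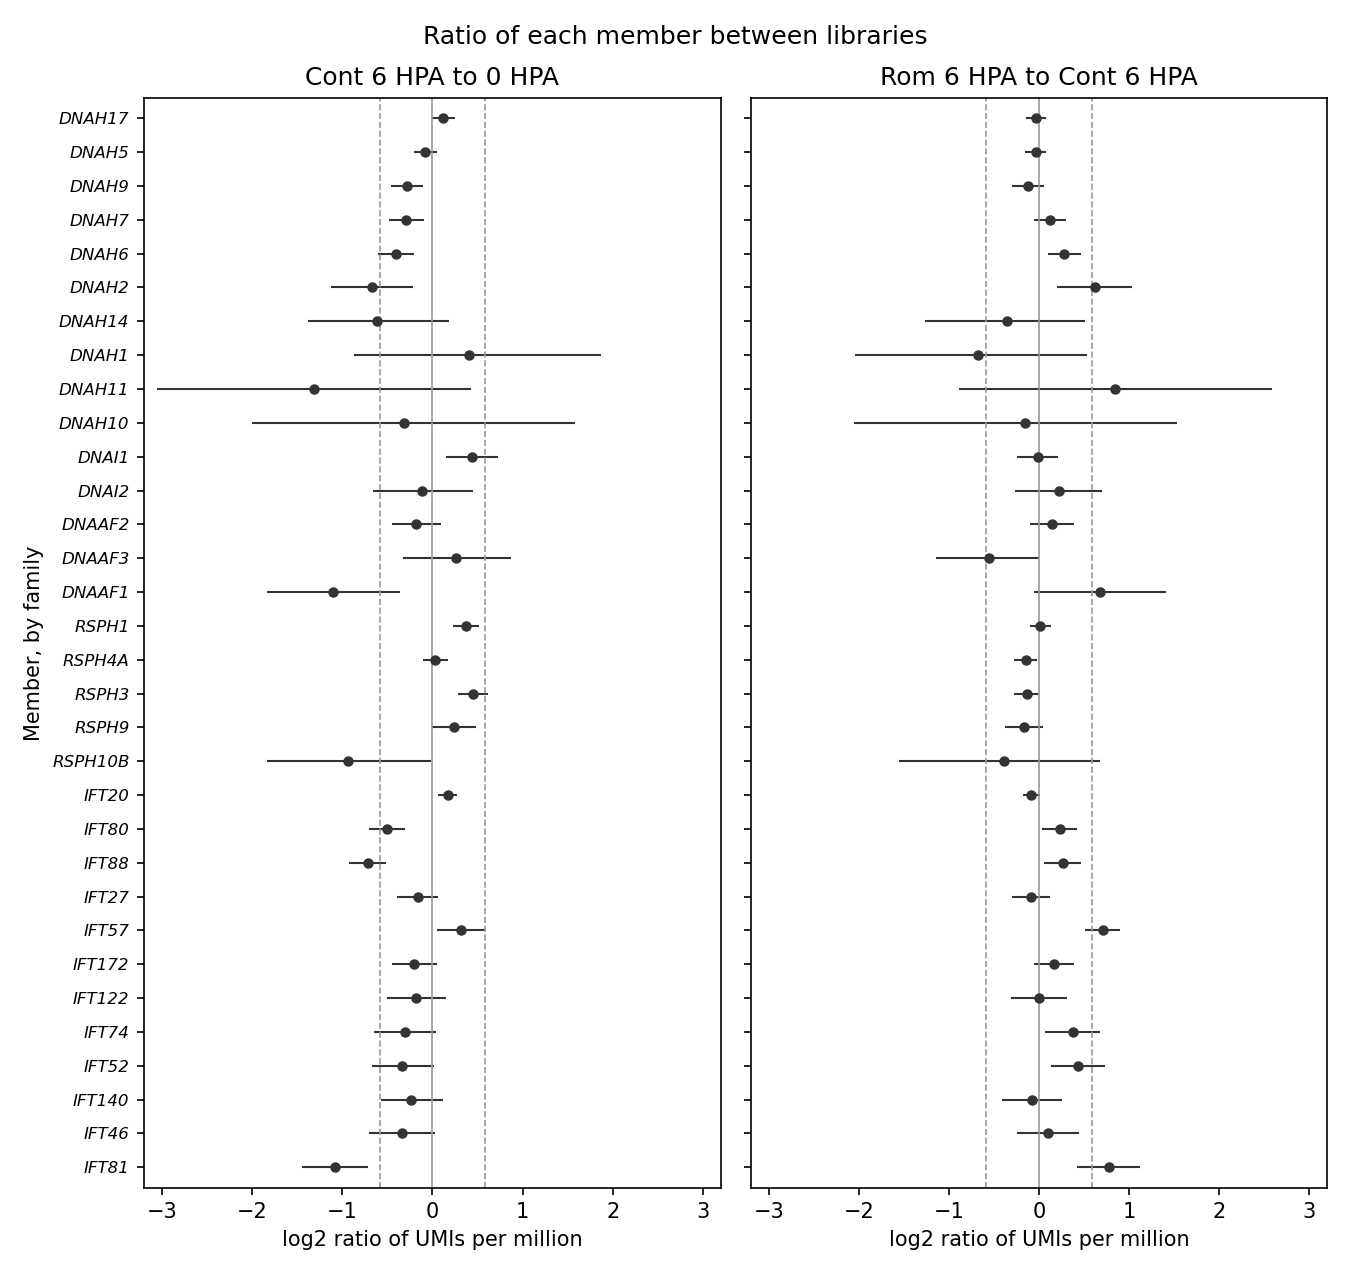
Log2 ratio of each member between libraries, with exact conditional binomial 95% intervals, for Cont 6 HPA to 0 HPA and for Rom 6 HPA to Cont 6 HPA. IFT57, at a ratio of 1.63, stands to the right in Rom 6 HPA to Cont 6 HPA with an interval from 1.43 to 1.87, and IFT81, IFT88 and DNAH2 stand to the left in Cont 6 HPA to 0 HPA.

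The ratios of Cont 6 HPA to 0 HPA ran opposite to the contrast between deeper and shallower nuclei. Shallower nuclei were not assigned to cell types, so depth and cell type cannot be told apart in this contrast. Within Rom 6 HPA the deeper and the shallower nuclei were set side by side for each member, and this contrast was plotted against the ratio of Cont 6 HPA to 0 HPA. Over the 26 members with at least 100 UMIs Pearson's r was -0.88 and Spearman's rho -0.84, as a description across genes, which are not replicates. Over the 9822 symbols with at least 100 UMIs r was -0.53 and rho -0.65. Over the 3 libraries, the members most concentrated in deeper nuclei were DNAAF1 (deeper to shallower ratio 10.0, 6.14 to 17.1), DNAH2 (6.61, 5.06 to 8.70), IFT81 (6.43, 5.16 to 8.06) and IFT88 (6.05, 5.33 to 6.89). All 4 were among the members lower by over 1.5-fold from 0 HPA to Cont 6 HPA, and Cont 6 HPA was the library with the smallest share of UMIs in deeper nuclei. RSPH1 (0.53, 0.48 to 0.59) and DNAI1 (0.52, 0.43 to 0.63) lay at the other end.

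**Figure D3:**
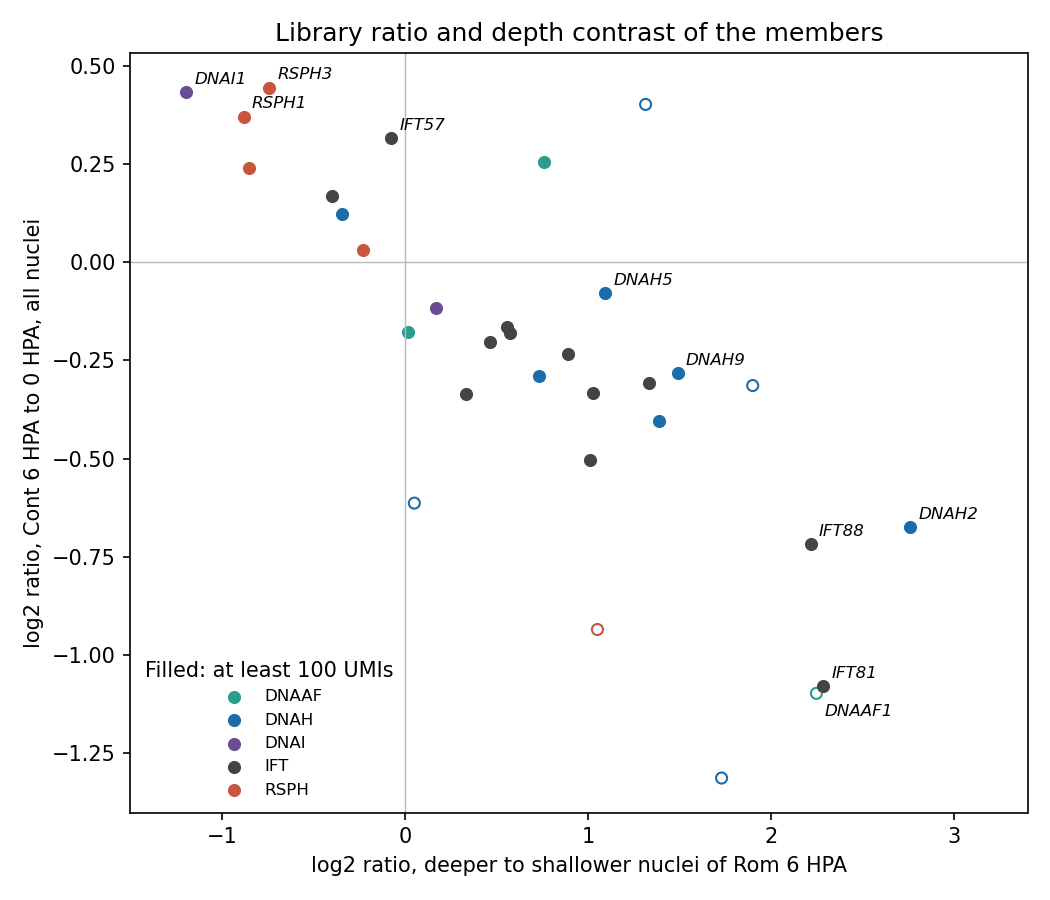
Each point is 1 member, placed by its log2 ratio of deeper to shallower nuclei in Rom 6 HPA (horizontal) and its log2 ratio of Cont 6 HPA to 0 HPA over all nuclei (vertical), filled where it has at least 100 UMIs. The points descend from RSPH1, RSPH3 and DNAI1 at the upper left to IFT81, IFT88 and DNAH2 at the lower right, with r of -0.88 over the 26 filled points.

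The ratios were therefore taken again within the shallower and within the deeper nuclei, called depths here. The cut followed each library's own median, so these depths were not matched in UMIs between libraries. Shallower nuclei had medians of 998, 1604 and 1062 UMIs. The Cont 6 HPA to 0 HPA ratio of IFT88 was 0.65 (0.49 to 0.87) in shallower and 0.99 (0.84 to 1.18) in deeper nuclei, so the difference seen over the whole library was absent from deeper nuclei. Its Rom 6 HPA to Cont 6 HPA ratio turned from 1.40 (1.09 to 1.80) in shallower to 0.86 (0.72 to 1.02) in deeper nuclei. The Cont 6 HPA to 0 HPA ratio of DNAH2 was 1.36 (0.67 to 3.03) in shallower nuclei, on 10 UMIs at 0 HPA and 44 in Cont 6 HPA. In deeper nuclei it was 0.81 (0.56 to 1.17), and both intervals lay across 1. The Cont 6 HPA to 0 HPA ratio of IFT81 remained below 1 at both depths, at 0.69 (0.41 to 1.20) and 0.70 (0.52 to 0.95). That of DNAH9 was 0.99 (0.80 to 1.23) and 1.15 (0.98 to 1.34), so its lower level in Cont 6 HPA was seen at neither depth. The Rom 6 HPA to Cont 6 HPA ratio of DNAH9 was 0.99 (0.83 to 1.18) in shallower and 0.70 (0.59 to 0.83) in deeper nuclei.

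For the sum of the inner arm chains, Cont 6 HPA to 0 HPA was 0.98 (0.85 to 1.12) in shallower and 0.88 (0.78 to 1.00) in deeper nuclei, and Rom 6 HPA to Cont 6 HPA was 1.07 (0.95 to 1.19) and 1.11 (0.97 to 1.25). The Rom 6 HPA to Cont 6 HPA ratios of IFT52, IFT74 and IFT80 and the Cont 6 HPA to 0 HPA ratio of DNAI1 likewise had intervals across 1 at both depths. RSPH1 and RSPH3 were above 1 in both: RSPH1 had 1.14 (1.02 to 1.27) in shallower and 1.32 (1.06 to 1.66) in deeper nuclei, and RSPH3 had 1.17 (1.03 to 1.34) and 1.66 (1.30 to 2.13).

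IFT57 kept its difference under romidepsin in both the shallower and the deeper nuclei. Its Rom 6 HPA to Cont 6 HPA ratio was 1.60 (1.37 to 1.86) in shallower nuclei, on 375 and 301 UMIs, and 1.83 (1.37 to 2.46) in deeper nuclei, on 83 and 115 UMIs. It was 2.91 (1.16 to 8.23) in muscle-like nuclei, on 7 and 18 UMIs, and 1.73 (1.18 to 2.55) in the deeper nuclei without a class name. In ciliated-like nuclei, defined next, IFT57 had 2 UMIs in each library. IFT81 had a Rom 6 HPA to Cont 6 HPA ratio of 1.83 (1.19 to 2.80) in shallower nuclei and 1.28 (0.94 to 1.73) in deeper nuclei, the latter with an interval across 1.

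To place the members in cell types, the 17654 deeper nuclei of the 3 libraries were clustered on other genes, with the members and their companion genes left out, and clusters were named from marker lists. A ciliated-like cluster held 67 nuclei, 21 at 0 HPA, 24 in Cont 6 HPA, then 22 in Rom 6 HPA. Of 23 ciliated markers in the files 17 were detected there and 16 were over 2-fold above the other deeper nuclei, among them FOXJ1, TEKT1, TEKT2, HYDIN and SPAG6. Raised FOXJ1 and at least 3 raised markers of the list were conditions of the name. OTOF and LOXHD1, which are known from hair cells, were also over 2-fold higher, and the hair cell list summed to 584 CPM there against 148 CPM in the other deeper nuclei. ATOH1 and POU4F3, which define hair cells, are not among the symbols analysed here. The class made up 0.067%, 0.042% and 0.049% of the nuclei of the 3 libraries, and its nuclei had medians of 2746, 5866 and 4313 UMIs.

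In these 67 nuclei the motile members were far above their level elsewhere. Over the 3 libraries the 20 genes summed to 3404 CPM (3200 to 3618) against 106 CPM in all other nuclei, a ratio of 32.0 (30.01 to 34.0). The IFT members summed to 519 CPM (441 to 606) against 62.9 CPM, a ratio of 8.25 (7.01 to 9.65). The ratio of the motile members was 47.3 at 0 HPA, 28.1 in Cont 6 HPA, then 28.2 in Rom 6 HPA, and that of the IFT members 11.8, 7.96 and 6.21, so both groups stood higher in this class in each library.

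Gene by gene, 17 of 20 motile members and 11 of 12 IFT members were over 2-fold higher in ciliated-like nuclei with at least 3 UMIs there, beside 9.02% of all symbols. Since 3 UMIs in the class are 9.85 CPM, a member at a low level elsewhere passes with any 3 UMIs, and the intervals of the single ratios say more than the count. DNAH17, RSPH4A, DNAH11 and IFT20 were the members not over 2-fold.

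Heavy chains of both arms had high ratios. DNAH9 had 252 UMIs in the class, 827 CPM (728 to 936) against 6.26 CPM elsewhere, a ratio of 132 (115 to 151), and DNAH5 had 360 UMIs, 1182 CPM (1063 to 1310) against 14.4 CPM, a ratio of 81.8 (73.1 to 91.3). DNAH2 reached 142 (101 to 195), DNAH6 73.1 (60.5 to 87.7) and DNAH7 45.6 (36.5 to 56.3). DNAH5, DNAH6, DNAH7 and DNAH9 gave 833 of the 1037 motile UMIs of the class, 80.3% (77.8 to 82.7). The assembly factors DNAAF1 and DNAAF3 had ratios of 112 (58.7 to 198) and 76.4 (43.4 to 127), each on fewer than 20 UMIs, whereas DNAAF2 had 3.61 (0.98 to 9.29) on 4 UMIs.

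Among the intermediate chains DNAI1 had a ratio of 9.94 and DNAI2 28.9 (12.3 to 58.1) on 8 UMIs. Among the spoke genes RSPH1 had 9.20, RSPH9 8.13 and RSPH3 8.02, and RSPH10B had 37.7 (7.54 to 116) on 3 UMIs. Among IFT members IFT52 had 23.4, IFT88 20.4 (14.0 to 28.9), IFT74 19.97 and IFT81 19.6, and IFT57 was lowest of the 11 at 4.01 (1.47 to 8.76). Of the 75 member features with at least 20 UMIs, 61 were over 2-fold higher in the class and 12 had fewer than 3 UMIs there. For DNAH5 this was 17 of 20 such features and for DNAH9 6 of 6. The share of all features past the same cut was not taken, so these feature counts have no background beside them.

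**Figure D4:**
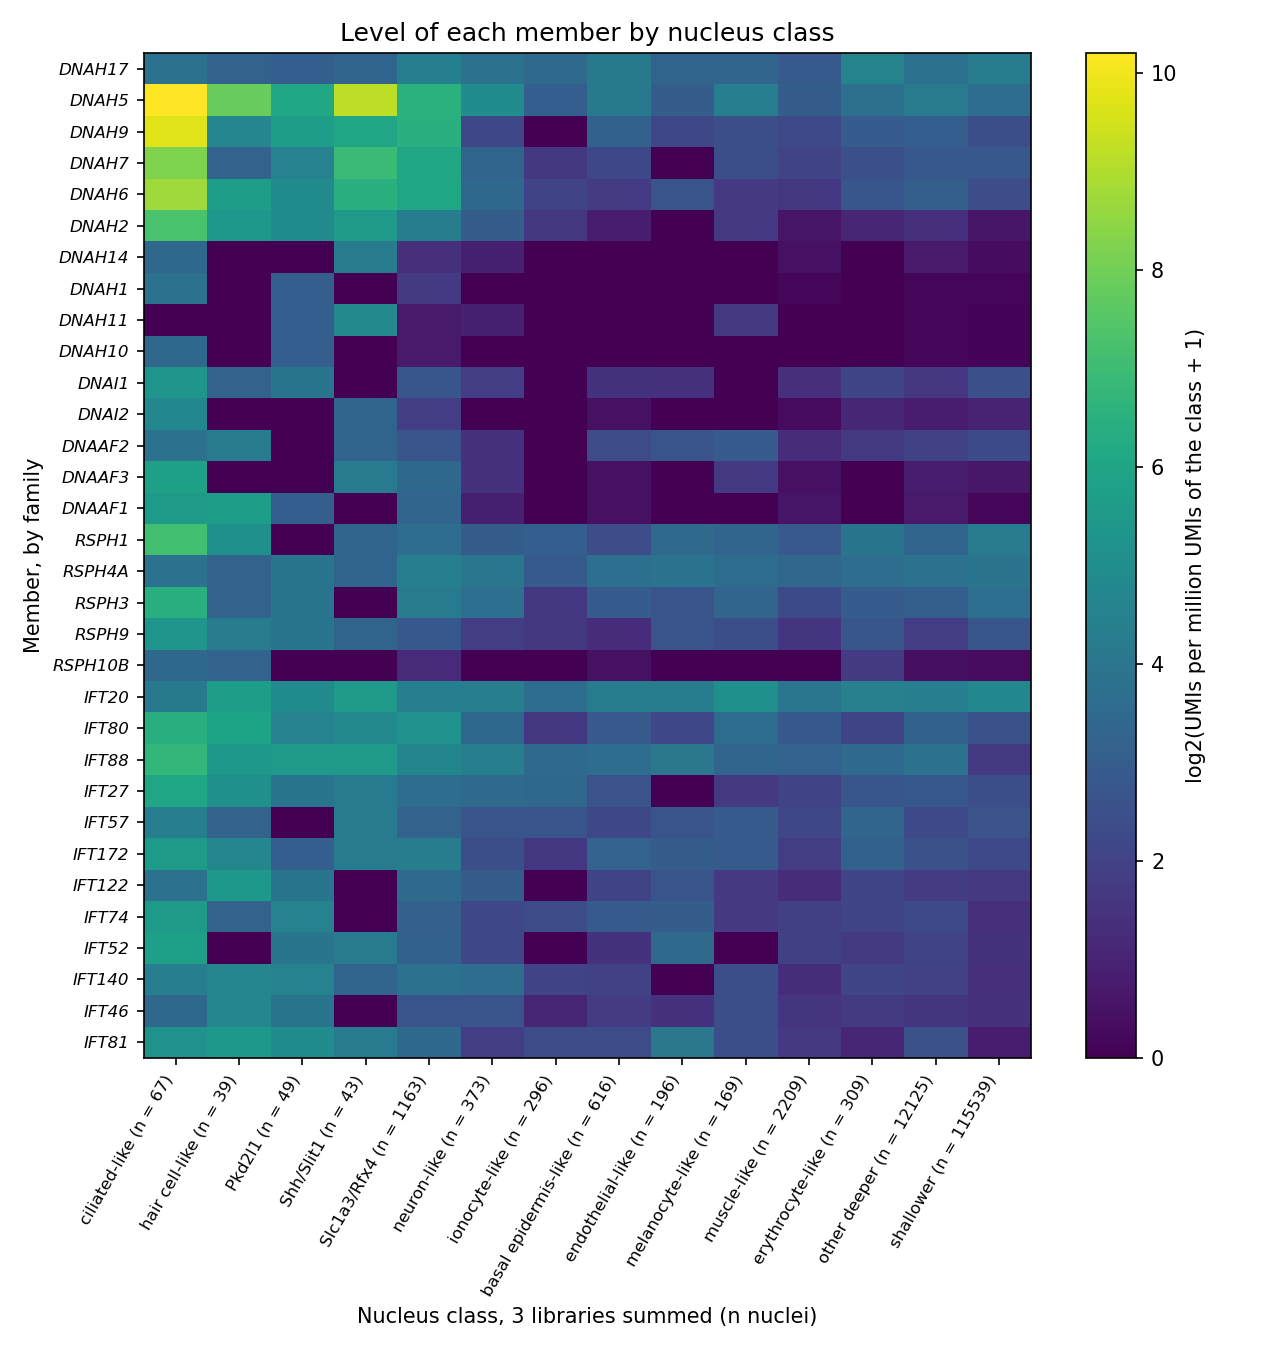
Level of each member, in CPM on a log colour scale, by nucleus class with the 3 libraries summed. The ciliated-like column is brightest for the heavy chains DNAH5 and DNAH9 (1182 and 827 CPM), and the rows of DNAH17, RSPH4A and IFT20 (13.1, 13.1 and 16.4 CPM there) show no such peak.

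At the level of single nuclei, each ciliated-like nucleus had at least 2 motile UMIs. The median was 13 UMIs at 0 HPA (range 3 to 28), 18 in Cont 6 HPA (5 to 28), then 12.5 in Rom 6 HPA (2 to 33), from a median of 5, 6 and 5 different members. After each nucleus was thinned to 1500 UMIs, 73.1% (60.9 to 83.2) of the 67 nuclei still had at least 3 different motile members, against 6.98% of Shh/Slit1 nuclei, 1.72% of Slc1a3/Rfx4 nuclei and 0.0453% of muscle-like nuclei.

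Between conditions, the level within ciliated-like nuclei was lower at 6 HPA than at 0 HPA, with overlapping intervals in the libraries of 6 HPA. The motile members had 4845 CPM (4320 to 5415) at 0 HPA, 3049 CPM (2766 to 3352) in Cont 6 HPA, then 2983 CPM (2655 to 3340) in Rom 6 HPA. The ratio was 0.63 (0.54 to 0.73) for Cont 6 HPA to 0 HPA and 0.98 (0.84 to 1.14) for Rom 6 HPA to Cont 6 HPA. With nuclei chosen by a gate of at least 2 ciliated markers in place of the cluster, the log2 of this last ratio went from -0.03 to 0.48. The IFT members had 781, 478 and 408 CPM, ratios of 0.61 (0.42 to 0.90) and 0.85 (0.56 to 1.28). Depth moved with this result: motile UMIs per nucleus averaged 14.8, 17.8 and 13.6, while the median nucleus of the class held 2746, 5866 and 4313 UMIs in all. Its part in the result was not tested.

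Single genes within the class rested on few UMIs. DNAH5 had 1688 CPM (1385 to 2038), 1078 CPM (913 to 1264) and 1004 CPM (818 to 1220), and DNAH9 had 1188, 800 and 636 CPM, both highest at 0 HPA. DNAH7 had 563, 228 and 239 CPM, and DNAH6 had 625, 328 and 428 CPM. RSPH1 was lowest at 0 HPA, with 93.8 CPM (34.4 to 204), then 121 CPM (70.7 to 194) and 189 CPM (114 to 295), and the intervals overlapped. IFT88 had a Rom 6 HPA to Cont 6 HPA ratio of 0.29 (0.07 to 0.88) on 4 and 19 UMIs.

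The ciliated-like nuclei nevertheless held a small share of the members' UMIs. They carried 6.65% of motile UMIs at 0 HPA, 3.59% in Cont 6 HPA, then 4.61% in Rom 6 HPA, and 1.75%, 1.04% and 1.05% of IFT UMIs. Of all UMIs they held 0.150%, 0.132% and 0.171%. The motile shares were 14.7%, 12.1% and 10.4% with the marker gate, and leaving out nuclei over 4 times the median gave 2.48% in Cont 6 HPA and 1.60% in Rom 6 HPA. Deeper nuclei without a class name held 1005, 1383 and 1063 motile UMIs. Among them 3, 9 and 5 nuclei had at least 10 motile UMIs each, as did 17, 21 and 15 ciliated-like nuclei. An unnamed cluster of 2, 19 and 48 nuclei had 4 ciliated markers over 2-fold higher. The cluster shares are thus those of the named class and may not cover every ciliated nucleus. Shallower nuclei, which were not clustered, held 69.7% of motile UMIs over the 3 libraries, beside 73.0% of all UMIs, at 106 CPM (105 to 108). That level lies within the interval of erythrocyte-like nuclei, 102 CPM (81.6 to 125), a cell type without motile cilia. Muscle-like nuclei, also without motile cilia, lay lower, with 47.9 CPM at 0 HPA and 47.1 CPM in Rom 6 HPA. The level of shallower nuclei was thus not shared by every such type. Because nuclei of the shallower class were not assigned to types, fewer ciliated nuclei and less RNA per nucleus cannot be told apart in the whole-library levels.

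Outside the ciliated-like class, the sums were highest in 4 small or neural classes. A cluster led by SLIT1, OLFM4 and SHH (Shh/Slit1, 43 nuclei) had 1022 motile CPM (844 to 1226), a ratio of 9.22 to all other nuclei, and DNAH5 gave 66 of its 115 motile UMIs. Its levels in the 3 libraries, 1076, 1005 and 1001 CPM, had overlapping intervals, and 6 of 20 motile and 2 of 12 IFT members were over 2-fold higher, beside 8.4% of all symbols. Of the 23 ciliated markers 6 were over 2-fold higher in this cluster, where at least 3 were a condition of its name. Hair cell-like nuclei (39), with OTOF, MYO7A and LOXHD1 and also 9 of the 23 ciliated markers over 2-fold higher, had 517 motile CPM (396 to 665) and 365 IFT CPM (264 to 491). There 9 of 12 IFT members were over 2-fold higher, beside 8.55% of all symbols, against 6 of 20 motile members. DNAAF1 had a ratio of 113 (40.5 to 256) on 6 UMIs and DNAH5 14.3 (9.39 to 20.8), whereas DNAH9 had 3.41 (0.70 to 9.99) on 3 UMIs.

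The Slc1a3/Rfx4 nuclei (1163), named for transcripts known from radial glia, were the largest class with raised members. Of the 12 spinal cord progenitor markers in the files 6 were detected in them, and only 2, GFAP and SLC1A3, were over 2-fold higher. Of the 23 ciliated markers 7 were over 2-fold higher. Raised SLC1A3 and RFX4 and at least 3 raised ciliated markers were conditions of the name, so they are no separate result. They had 434 motile CPM (411 to 459), a ratio of 4.08, and 176 IFT CPM (161 to 192), a ratio of 2.85. In the 3 libraries the motile level was 411 CPM (372 to 453), 453 CPM (417 to 492) and 433 CPM (389 to 482), with overlapping intervals. Here 11 of 20 motile and 10 of 12 IFT members were over 2-fold higher, beside 24% of all symbols. DNAAF1 had a ratio of 25.4 (15.7 to 40.1), DNAH2 17.6 (12.9 to 23.7), DNAH9 13.8 (12.1 to 15.8), DNAH6 11.2 (9.54 to 13.1) and DNAH7 10.0 (8.54 to 11.7). DNAH5 stood lower than these at 5.97 (5.26 to 6.77). RSPH1, RSPH3, RSPH9 and DNAI1 had ratios of 0.76 to 1.53 in this class, while DNAI2 had 2.89 (1.23 to 5.81) and RSPH10B 5.12 (1.35 to 13.9) on 8 and 4 UMIs.

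A cluster led by PKD2L1 (49 nuclei), with 9 of the 23 ciliated markers over 2-fold higher, had 296 motile CPM (211 to 403), but 13 of its 29 motile UMIs at 0 HPA came from 1 nucleus. The motile sum was 10 UMIs in Cont 6 HPA, then 1 UMI in Rom 6 HPA, while the IFT members gave 221, 243 and 274 CPM. There 5 of 20 motile and 5 of 12 IFT members were over 2-fold higher, beside 9.13% of all symbols. Neuron-like nuclei (373) had 117 motile CPM (98.2 to 139) and 102 IFT CPM (84.5 to 123). Their motile level was near that of erythrocyte-like nuclei but above that of muscle-like nuclei (47.9 CPM at 0 HPA and 47.1 CPM in Rom 6 HPA). In neuron-like nuclei 1 of 20 motile and 5 of 12 IFT members were over 2-fold higher, beside 19.7% of all symbols. The IFT level of neuron-like nuclei was 2.04 times higher (1.28 to 3.26) in Rom 6 HPA than in Cont 6 HPA, on 45 and 35 UMIs. The class mixed clusters in different proportions in these libraries. A cluster led by UNC13C and SRRM4 held 37 nuclei of Cont 6 HPA and 13 of Rom 6 HPA, and another, led by SEMA7A, 10 and 21. In ionocyte-like, basal epidermis-like, endothelial-like, melanocyte-like, muscle-like and erythrocyte-like nuclei, 0 of 20 motile members were over 2-fold higher with at least 3 UMIs, beside 7.02%, 16.7%, 16.5%, 12.7%, 16.8% and 13.5% of all symbols. Of the 12 IFT members, 1, 3, 5, 0, 0 and 0 were over 2-fold higher in these classes, in the same order.

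**Figure D5:**
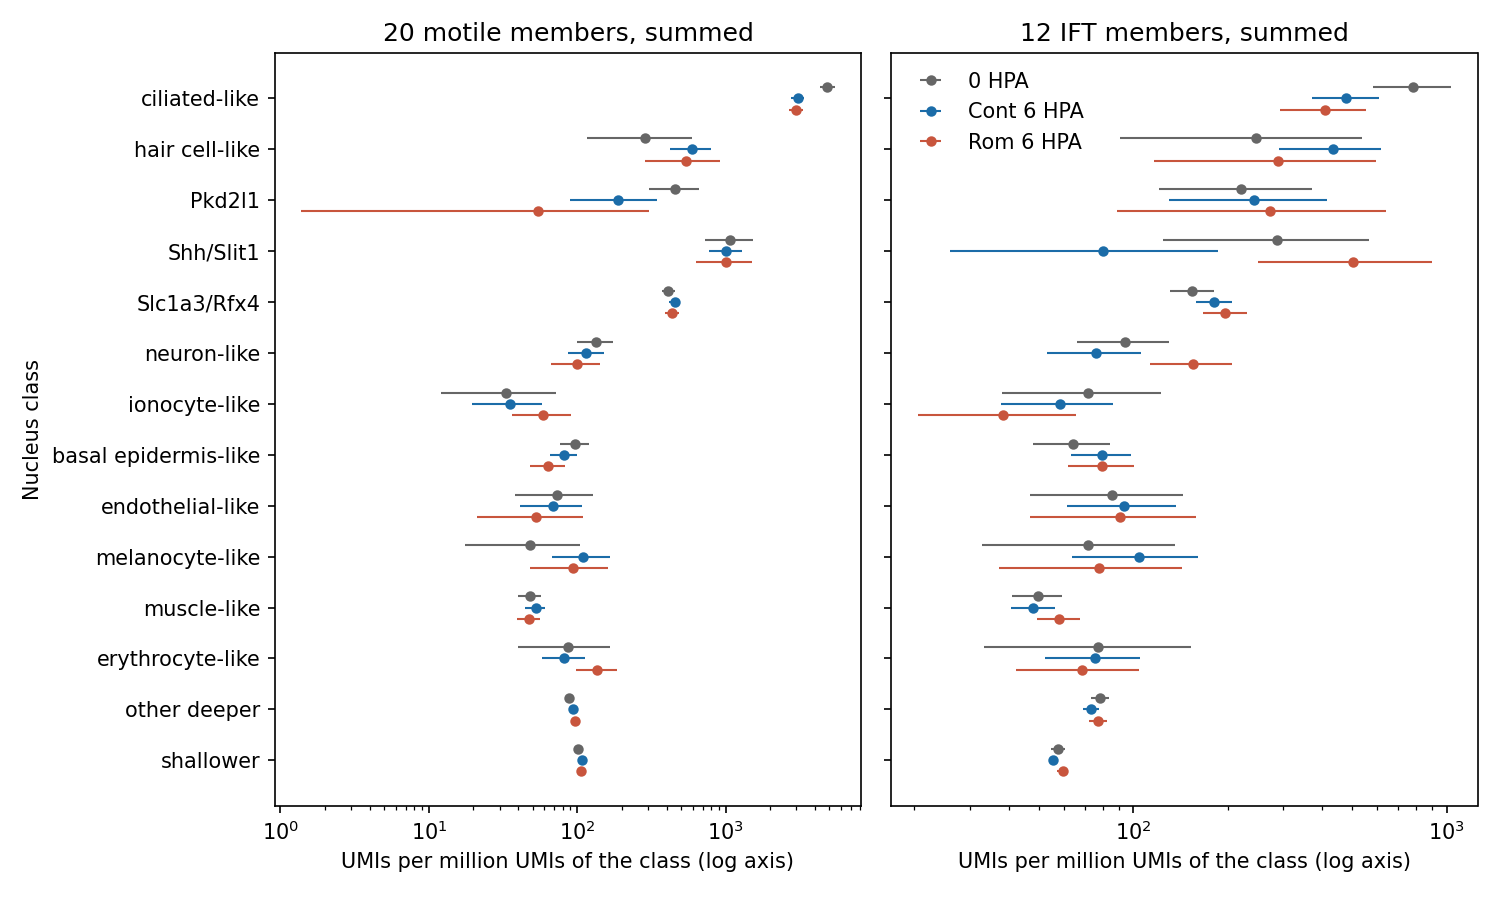
Summed level of the motile members (left) and of the IFT members (right) in each nucleus class, in CPM of the class on a log axis, with a point for each library and exact Poisson 95% intervals. Ciliated-like nuclei lie highest for the motile members in all 3 libraries (4845, 3049 and 2983 CPM), followed by Shh/Slit1 nuclei, and the spread between classes is smaller for the IFT members.

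A raised level of DNAH17, RSPH4A or IFT20 in ciliated-like nuclei was not detectable at this depth. In ciliated-like nuclei DNAH17 had 4 UMIs and a ratio of 0.78 (0.21 to 2.00) to all other nuclei, RSPH4A had 4 UMIs and 0.94 (0.26 to 2.42), and IFT20 had 5 UMIs and 0.67 (0.22 to 1.56). The upper bounds of DNAH17 and RSPH4A lie below the lower bounds of DNAH5 and RSPH1 in the same class. In shallower nuclei the 3 genes had 18.3, 14.4 and 26.5 CPM, and in erythrocyte-like nuclei 22.8 CPM (13.9 to 35.3), 11.4 CPM (5.47 to 20.99) and 20.5 CPM (12.2 to 32.5). Their UMIs were thus spread over nuclei of types with and without motile cilia. DNAH11, the remaining motile member under 2-fold, had 0 UMIs in the class, where 3 UMIs would have been 9.85 CPM.

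The share of nuclei with any motile UMI followed depth. It was 11.7% at 0 HPA, 16.9% in Cont 6 HPA, then 12.2% in Rom 6 HPA. After thinning each nucleus to 950 UMIs, which left out 2800, 101 and 190 shallower nuclei, it was 9.06% (8.73 to 9.40), 9.51% (9.27 to 9.76) and 9.48% (9.21 to 9.76). For the IFT members the shares were 8.14%, 10.1% and 7.97% before thinning and 5.67%, 5.30% and 5.68% after it. Thinned to 1500 UMIs, 98.5% of ciliated-like, 69.8% of Shh/Slit1, 43.9% of Slc1a3/Rfx4 and 43.6% of hair cell-like nuclei had a motile UMI. Of erythrocyte-like nuclei 13.3% (9.69 to 17.6) did, and of muscle-like nuclei 7.15% (6.11 to 8.31). The 16.1% of neuron-like nuclei lay within the interval of erythrocyte-like nuclei and above that of muscle-like nuclei.

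Other genes of the same structures were read beside the members. Of 18 light chain, docking and nexin genes with at least 20 UMIs, 15 were over 2-fold higher in ciliated-like nuclei, beside 9.02% of all symbols for this and the next lists, among them CCDC39, which sets the spacing of the inner arms, at 47.3 (38.8 to 57.2), and TCTEX1D1 at 12.5 (8.22 to 18.3). Of 14 assembly factors under other names 10 were, with SPAG1 at 2.68 (2.02 to 3.49) and the chaperone RUVBL2, which is used by most cells, at 0.82 (0.42 to 1.43). Of 9 genes of the transport motors 7 were, with KIF3B, a kinesin subunit, at 3.26 (2.02 to 4.99) and DYNC2H1, the heavy chain of the retrograde motor, at 23.8 (20.4 to 27.7). Of 8 IFT proteins under other names 5 were, with TTC26 at 3.30 (1.58 to 6.09), while TTC21B had 0 UMIs in the class.

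The BBSome, a coat that sorts ciliary membrane proteins, gave 2 of 8, with BBIP1 at 0.58 (0.07 to 2.09) and BBS2 at 1.25 (0.03 to 6.97). Of 11 genes of the ciliary base and membrane 9 were over 2-fold higher, including the transition zone genes CEP290 at 13.2 (11.4 to 15.1) and AHI1 at 30.8 (26.5 to 35.6). Of 5 measured genes of the multiciliation programme 3 were, with RFX4 at 3.67 (1.35 to 8.02) and PLK4, a kinase of centriole duplication in dividing cells too, at 0.33 (0.01 to 1.82).

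Between libraries, CEP290 of the ciliary base and DYNC2H1 of the transport motors had the low point in Cont 6 HPA seen in several IFT members. CEP290 had 73.8, 40.9 and 56.1 CPM, and DYNC2H1 had 33.2, 19.5 and 27.7 CPM. Both were lowest in Cont 6 HPA, with Rom 6 HPA to Cont 6 HPA ratios of 1.37 (1.31 to 1.44) and 1.42 (1.33 to 1.52). Of the 11 base and membrane genes, 8 were lower by over 1.5-fold from 0 HPA to Cont 6 HPA, beside 21.9% of all symbols, with a median log2 ratio of -0.79 beside -0.23 for all symbols. Ratios of companion genes between libraries were taken over all nuclei and not within depth, so the part of depth in them was not tested. RFX4, a transcription factor, had 5.50, 3.57 and 8.55 CPM and was highest in Rom 6 HPA, at 2.39 times Cont 6 HPA (2.09 to 2.74). CCDC39, with 9.40, 8.05 and 8.48 CPM, and SPAG1, with 68.55, 68.0 and 66.1 CPM, differed less, and the median log2 ratio from Cont 6 HPA to Rom 6 HPA was -0.01 for the light chain, docking and nexin genes and 0.09 for the assembly factors under other names.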

How the data were processed

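Single nuclei of axolotl embryo tail tips were profiled in 3 droplet libraries, 1 per condition. The authors deposited, per library, a filtered matrix of UMI counts by feature and nucleus, not normalized, and each feature carries a symbol. The submitters' processing notes name Cell Ranger 6.0.0 and the matrix headers name Cell Ranger 3.0.2. How introns were counted, and the alignment settings, are not given in the sources used here. All columns belonged to a sample.

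UMIs were summed by symbol, ignoring case, and divided by the total UMIs of the library or nucleus class (CPM). Symbols needed at least 20 UMIs. The total UMIs were 42537606 (0 HPA), 105765943 (Cont 6 HPA) and then 58827729 (Rom 6 HPA), of which 79.9%, 84.1% and 82.6% fell on features with a symbol. With 1 library per condition no test was made. Intervals at 95% are exact Poisson for a level, Clopper-Pearson for a share and conditional binomial for a ratio, and the functions were tested on simulated data. PCR duplicates were already collapsed by UMI.

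Nuclei with at least 1.5 times their library's median UMIs were clustered on the 3000 most dispersed features, without members and companion genes, with 20 principal components, 15 neighbours and Leiden resolution 1. Mixed clusters of at least 100 nuclei were clustered again, and this and the naming rule (at least 3 markers of a type) were set after the clusters had been seen. The ciliated-like name also required raised FOXJ1. The names Slc1a3/Rfx4 and Shh/Slit1 required at least 3 raised ciliated markers beside the genes they are called by. No doublet caller was run, and an alternative left out nuclei over 4 times the median. The members and gene lists were chosen with earlier results of these data known. Values per library are given for the 4 members with most UMIs in each family, the 5 highest and 5 lowest ratios among members with at least 100 UMIs in the libraries compared, and the 2 companion genes with most UMIs in each list. Members printed beyond these, and companion genes singled out, were chosen after their values were seen. For shares of nuclei, each nucleus was thinned to 950 UMIs (all nuclei) or 1500 UMIs (classes). No sequence is printed, since none was used here. Python 3.11.15, numpy 2.4.6, scipy 1.17.1, pandas 2.3.3, scikit-learn 1.9.0, python-igraph 0.11.9, leidenalg 0.10.2 and matplotlib 3.10.9 were used.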

Additional observations from a re-analysis of the deposited data

Results flagged for a closer look

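The summed motile members moved in opposite directions from 0 HPA to Rom 6 HPA in a pair of nucleus classes, each with an interval that excluded no change. The log2 ratio was 0.082 in shallower nuclei and -0.61 in basal epidermis-like nuclei, where the level went from 96.7 CPM (77 UMIs) to 63.5 CPM (56 UMIs). The ratio there was 0.66 (0.46 to 0.94). A fall was not particular to basal epidermis-like nuclei. In ciliated-like nuclei the motile members had 310 of 63986 UMIs at 0 HPA and 300 of 100566 UMIs in Rom 6 HPA. With 1 library per condition the difference between the classes was not tested. Leaving out nuclei with at least 10 motile UMIs gave -0.61 in basal epidermis-like nuclei again, since the only such nucleus lay in Cont 6 HPA. The class compares different clusters: of its 228 nuclei at 0 HPA, 102 and 91 came from clusters with 0 and 1 Rom 6 HPA nuclei, and of its 200 nuclei in Rom 6 HPA 162 came from a cluster with 1 nucleus of 0 HPA. Erythrocyte-like nuclei had 87.0 CPM at 0 HPA on 9 motile UMIs and 137 CPM in Rom 6 HPA on 42.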

How the results depend on the processing

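Values are log2 ratios unless named otherwise. With median of ratios size factors the summed motile members went from 0.04 to 0.25 for Cont 6 HPA to 0 HPA and from 0.01 to 0.20 for Rom 6 HPA to 0 HPA, and the IFT members from -0.14 to 0.069 and from -0.02 to 0.17. Members over 1.5-fold then numbered 3 higher and 4 lower in Cont 6 HPA to 0 HPA, 2 lower in Rom 6 HPA to Cont 6 HPA and 2 higher in Rom 6 HPA to 0 HPA. With the feature of most UMIs per symbol alone, the motile sums were 0.17 for Cont 6 HPA to 0 HPA, -0.079 for Rom 6 HPA to Cont 6 HPA and 0.093 for Rom 6 HPA to 0 HPA, and members lower by over 1.5-fold numbered 3, 0 and 1. At a minimum of 100 UMIs the lower members numbered 3, 0 and 0 and 3 were higher in Rom 6 HPA to Cont 6 HPA. At a fold of 2 the lower members numbered 3, 0 and 1 and 0 were higher in Rom 6 HPA to Cont 6 HPA. Without barcodes shared between libraries 0 members were lower in Rom 6 HPA to Cont 6 HPA. The shares of all symbols past the fold were not taken under these settings. These counts therefore have no background beside them and are not read as a result about the members.

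A gate of at least 2 ciliated markers at any depth, in place of the cluster, lowered the ratio of ciliated-like to other nuclei to 5.50, 2.93 and 4.14 for motile and 2.36, 1.87 and 2.02 for IFT members (0 HPA first, Rom 6 HPA last). It raised the share of UMIs held to 14.7%, 12.1% and 10.4%, and 6.91%, 8.08% and 5.36%, and turned the motile Rom 6 HPA to Cont 6 HPA ratio within the class from -0.03 to 0.48. The motile share in Cont 6 HPA was 4.05% with a depth minimum of 2 times the median, 4.10% with 30 principal components and 2.48% without nuclei over 4 times the median. That last setting gave 1.60% for motile members in Rom 6 HPA and 0.767% and 0.465% for IFT members in Cont 6 HPA and Rom 6 HPA. Without those nuclei the IFT ratio of Cont 6 HPA to 0 HPA within ciliated-like nuclei was -0.56 (-1.18 to 0.07), an interval across 0. Thinning changed the shares of nuclei with a UMI to 9.06%, 9.51% and 9.48% for motile and 5.67%, 5.30% and 5.68% for IFT members.

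Depth strata, the Cont 6 HPA to 0 HPA ratios within the class and the basal epidermis values were added after seeing the data. In shallower nuclei alone the motile sums were 0.10 for Cont 6 HPA to 0 HPA and 0.082 for Rom 6 HPA to 0 HPA, and the IFT sum was -0.052 for Cont 6 HPA to 0 HPA. In deeper nuclei alone the motile sum was -0.10 for Rom 6 HPA to Cont 6 HPA, and the IFT sums were -0.028 for Cont 6 HPA to 0 HPA and 0.050 for Rom 6 HPA to Cont 6 HPA. DNAAF1 reversed from 0.68 to -0.11 for Rom 6 HPA to Cont 6 HPA in deeper nuclei, and DNAH2 from -0.68 to 0.44 for Cont 6 HPA to 0 HPA in shallower nuclei. The cause of these moves was not tested. No paired analysis was possible because each condition has 1 library. The 67 ciliated-like nuclei gave 158 IFT UMIs, which sets the width of the IFT intervals there.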
